A study of Rattus norvegicus with 10 samples.

Results

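The most crowded stretches of the captured methylome were examined in the hippocampus of sham-operated rats and of rats with traumatic brain injury (TBI). The rat RN4 assembly was divided into bins of 100 kb, and each captured region was placed in the bin that held its start. Chromosomes 1 to 20 were ranked without chromosome 12, and regions ending in the last 2 Mb of a chromosome were left out. The bins with the highest counts, up to 1% of the 24236 bins that held a region, were kept. This gave 226 bins with 57 or more regions each, here called crowded bins. They held 13247 of the 716492 captured regions, or 1.85%. Another 670426 regions lay in the remaining bins of the same chromosomes and are called other regions. The rule counted regions and used no tag counts, but the list of regions was itself drawn from these libraries.

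The rats were adult male Sprague-Dawley animals, an outbred strain. All received anesthesia and a craniectomy over the left parietal lobe, and 5 then received lateral fluid percussion, a pressure pulse on the intact dura, while 5 sham rats did not. The left hippocampus was taken 3 months later, and CA3 and dentate gyrus tissue was kept (labelled as dorsal hippocampus). There was 1 library from each rat, and tissue of each animal was handled separately. The study's methods name fewer sham rats for methylation than the 5 with data here. Tissue of mixed cell types was used, so that a change in cell composition and a change in methylation within cells cannot be told apart.

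In mammals, DNA methylation is placed mostly on cytosines that precede a guanine (CpG sites). Most such sites in the genome are methylated, and dense clusters of them at many promoters, the CpG islands, are usually free of methylation. A methyl-binding protein pulls down fragments with several methylated CpG sites, so that stretches with many such sites give many captured fragments. Sequence without CpG sites gives none however methylated it may be. The regions counted here were called where some pair of libraries differed, so their number is not a direct measure of CpG sites. No gene is named below, because no annotation of the RN4 assembly was used here. Positions are given as deposited.

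Libraries held between 13597924 and 21672940 tags. One library, that of sham rat 5, stood apart. Only 0.257% of the crowded-bin regions held no tag in it, against 3.35% to 9.72% in the other 9 rats. Its tags were spread more evenly, since the strongest 1% of regions took 8.23% of them, against 11.5% to 15.0% elsewhere. It held over 50% of all tags in 949 crowded-bin regions (7.16%) and in 12.0% of other regions. Values without it are given beside the results that it moved.

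Region counts per bin ran from 1 to 73 over all ranked bins, with a median of 29 and quartiles of 14 and 42. The counts had 2 broad peaks, near 10 regions (600 bins) and near 44 regions (564 bins), with a shallow low at 26 regions (366 bins). The crowded bins were the far end of the second peak. Their median was 58 regions and their quartiles were 57 and 59.75. There was no break at the limit: 84 bins held 57 regions and were kept, and 122 bins held 56 and were not.

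**Figure D1:**
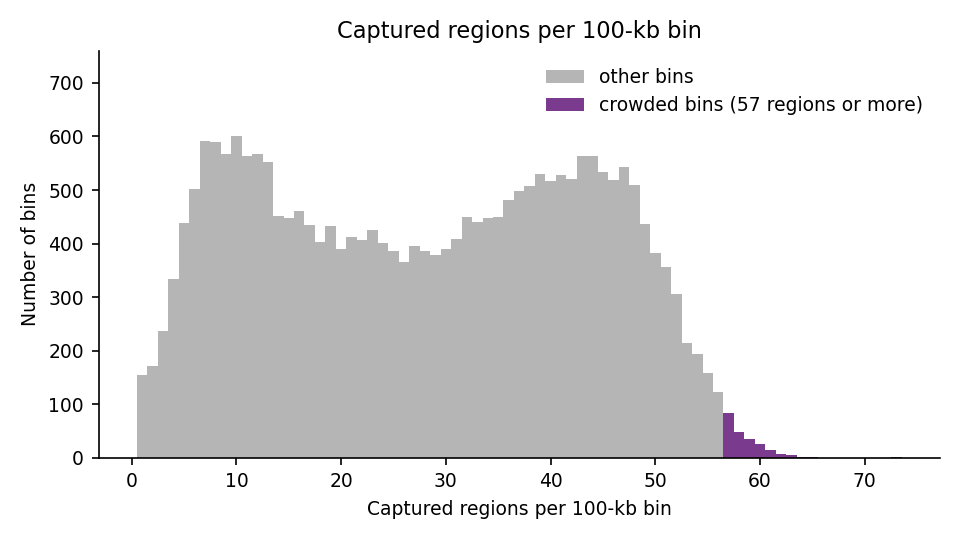
Number of 100-kb bins (y axis) by the number of captured regions they held (x axis), for the 24236 ranked bins. The 226 crowded bins, with 57 regions or more, form the right tail and are not separated from the other bins.

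Crowded bins lay on every chromosome ranked. Their share was highest on chromosome 10, with 23 of 1068 bins (2.15%), followed by chromosome 8 with 21 of 1243 bins (1.69%) and chromosome 19 with 8 of 563 bins (1.42%). It was lowest on chromosome 2, with 12 of 2495 bins (0.481%). Chromosomes 10 and 19 also had the highest median counts over all of their bins, at 38 and 39 regions, and chromosome 2 had the lowest, at 22. Crowded bins leaned towards the far end of the deposited coordinates. When each chromosome was cut into 4 equal stretches, the last one held 38.9% of them and 23.9% of all ranked bins, and 39 (17.3%) lay within 10 Mb of the end, against 6.14% of all ranked bins.

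Most crowded bins stood alone. There were 209 single bins, 7 pairs of touching bins and 1 run of 3. The run lay on chromosome 2 from 246900000 to 247200000 and held 175 regions, 57, 58 and 60 in its bins. Its first bin was covered to 41.8% by captured regions, and the other 2 to 56.9% and 58.9%. The surroundings of crowded bins were also dense. Adjacent bins had medians of 45 and 47 regions, and bins 1000 kb away had medians of 40 and 39, all above the median of 29 over all ranked bins. Another crowded bin lay within 1 Mb of 84 of them (37.2%). 

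**Figure D2:**
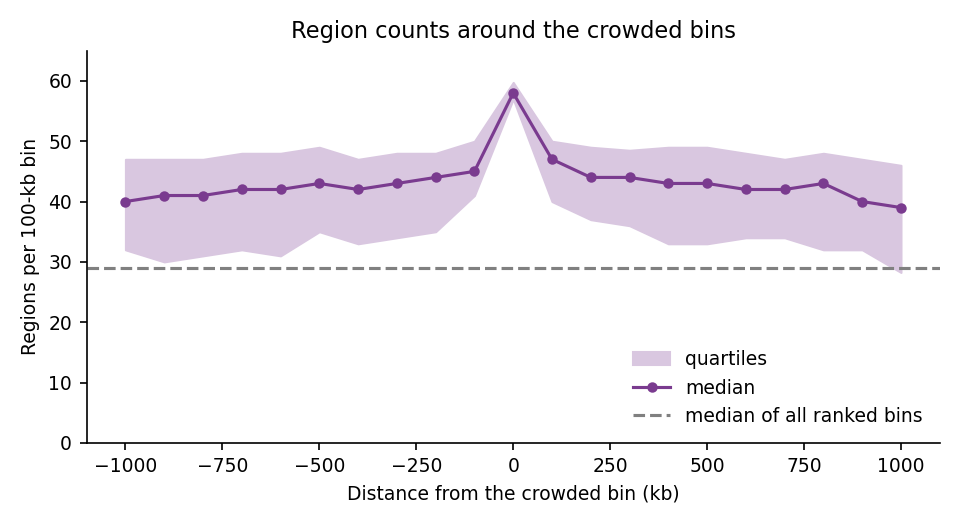
Regions per 100-kb bin (y axis) by distance from a crowded bin in kb (x axis), as the median (line) and quartiles (band) over the crowded bins with a ranked bin at that distance. The median fell from 58 in the crowded bin to 45 and 47 beside it and stayed at 39 or above up to 1000 kb, over a genome median of 29 (dashed line).

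Which regions were chosen depended on where the bins began. With bins shifted by 50 kb, 219 bins with 12853 regions passed the same rule, and they held 3211 of the 13247 crowded-bin regions. Bins of 50 kb held 4630 of them, and bins of 200 kb held 4145. When regions where sham rat 5 held over 50% of the tags were left out before counting, 233 bins passed, and 146 of these were crowded bins (62.7% of the former and 64.6% of the latter). When regions with under 10 tags in the other 9 rats were left out, 198 bins passed, and 148 of them were crowded bins (74.7% and 65.5%). When only regions with enough tags to be tested were counted, 205 bins passed with at least 42 such regions, and 47 of these were crowded bins (22.9% and 20.8%). Crowded bins had a median of 36 tested regions and other bins a median of 11. Of the 242 bins with the most tags, 13 were crowded bins. Over all bins the counts of regions and of tags rose together (Spearman's rho 0.904 over 24236 bins, from the same libraries), and the median crowded bin stood at percentile 88.9 by tags. The highest bins by each count were mostly different bins.

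Crowded-bin regions were longer and closer together than other regions. Their median length was 646 bp (quartiles 464 and 951 bp), against 571 bp (426 and 818 bp). The median gap to the next region was 608 bp against 1180 bp, and captured regions covered a median of 45.0% of a crowded bin and 17.4% of another bin. Short gaps and high coverage follow from the count that defined the bins. Region length did not enter the count, but both came from the same calling and merging of regions. Whether length is independent of the count was not tested. Regions of 1 kb or more made up 22.5% of crowded-bin regions and 16.6% of other regions. Regions of chromosome 12, which was not ranked, were longer still, with a median of 692 bp, and those of the last 2 Mb of the chromosomes were shorter, with a median of 540 bp.

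Tags were also denser in them. The median crowded-bin region had 273 tags per kb over all rats, against 218 in other regions, 306 on chromosome 12 and 187 in the last 2 Mb. The difference was larger in short regions. Between 400 and 800 bp, crowded-bin regions had a median of 231 tags per kb and other regions 182. Between 800 and 1600 bp the medians were 368 and 347, and from 1600 bp they were 481 and 510, with the crowded-bin regions lower. A tag sum of at least 117, the 50th percentile of all regions, was reached by 8087 crowded-bin regions (61.0%) and by 49.6% of other regions. These 8087 regions were the ones tested, and 8 crowded-bin regions held no tag at all.

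The higher density was seen within each rat. In sham rats 1 to 5, crowded-bin regions held 2.15, 2.14, 2.12, 2.14 and 2.08 tags per kb per 1000000 tags. In TBI rats 1 to 5 they held 2.17, 2.15, 2.15, 2.16 and 2.15. Other regions held between 1.94 and 1.96 in every rat, so that the 2 sets of values did not overlap. The mean within-rat difference was 0.14 ± 0.021 on the log2 scale (SD, 10 rats), a 1.10-fold higher density, and was positive in 10 of 10 rats (exact sign-flip permutation test, two-sided, p = 0.00195, adjusted over 4 comparisons 0.00195, the smallest value possible). All rats were scored on the same list of regions, drawn from these libraries, so the test shows only that the rats agreed on that list. Crowded-bin regions with no tag made up 6.11% ± 2.99 of a rat's crowded-bin regions (SD, n = 10), against 10.9% ± 5.05 of other regions, and the share was lower in 10 of 10 rats (exact p = 0.00195). By the same test, density was lower than on chromosome 12 in 10 of 10 rats, by -0.26 on the log2 scale, and higher than in the last 2 Mb in 10 of 10, by 0.30. The difference from other regions depended on the regions and the measure taken. With only regions at or above the 50th percentile of tags, a filter on the quantity compared, it turned to -0.015 (exact p = 0.0156). It was 0.03 with 50-kb bins and 0.34 as a difference of medians over regions (exact p = 0.00195 each).

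TBI rats had a slightly larger share of their tags in crowded bins. The share was 2.23%, 2.22%, 2.20%, 2.22% and 2.15% in sham rats 1 to 5 and 2.25%, 2.23%, 2.23%, 2.24% and 2.22% in TBI rats 1 to 5. The groups overlapped, since sham rat 1 was above TBI rats 3 and 5, and sham rat 5 was the lowest of all. The means were 2.20% ± 0.031 (SD) for the 5 sham and 2.23% ± 0.0085 for the 5 TBI libraries, a difference of 0.0309 percentage points (exact permutation test, two-sided, p = 0.0238). Adjusted over the 4 library measures computed first, 3 of which restate the same tags, this was 0.0317. With 3 more measures that were added after those values were seen, it was 0.0556 over 7, so that the call depended on the family. Without sham rat 5 the difference fell to 0.0179 percentage points (exact p = 0.0397, adjusted over 7 measures 0.0926). Without any one of TBI rats 1 to 4 the exact p was between 0.0556 and 0.0952. The added measures, which were the densities on chromosome 12 and in the last 2 Mb and the share of the strongest 1% of regions, had exact p-values of 0.357, 1 and 0.786 between the groups.

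**Figure D3:**
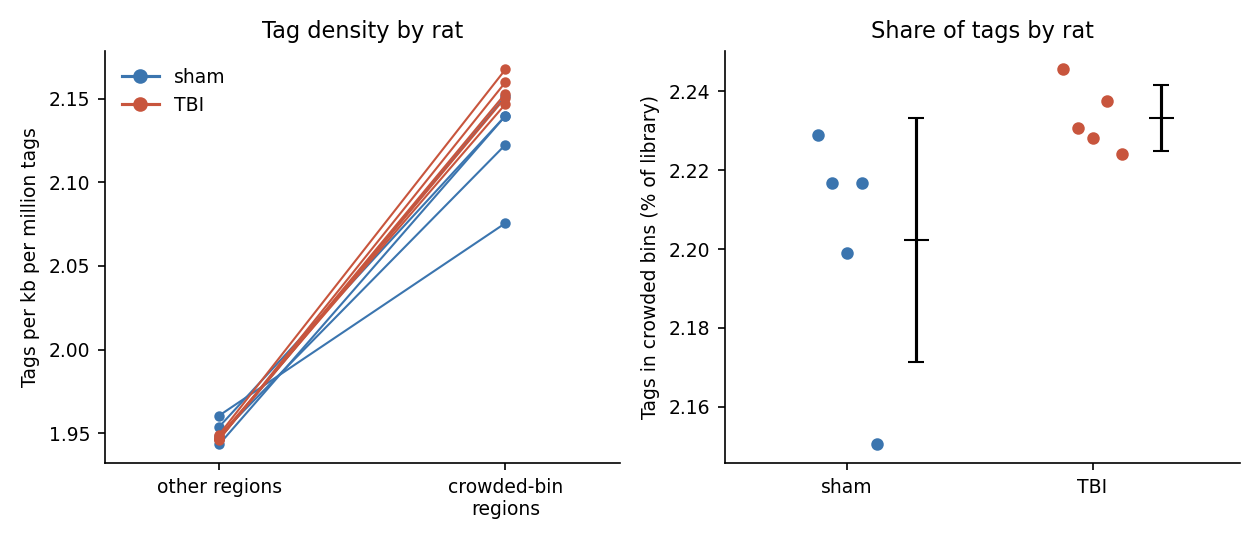
Left, scaled tags per kb in other regions and in crowded-bin regions, with 1 line per rat; right, the percentage of each library's tags in crowded bins, with 1 point per rat (replicates side by side) and the mean ± SD of each group (n = 5). Every line rises from left to right, the flattest being sham rat 5, and the TBI points lie within 2.22% to 2.25% while sham rat 5 lies at 2.15%. Neither y axis starts at 0.

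Single regions were compared between TBI and sham rats with edgeR's quasi-likelihood test over all 358249 regions tested. At an unadjusted p under 0.01, 22 of the 8087 crowded-bin regions were called (0.272%), against 0.266% of all regions tested. Of these, 6 were higher in TBI rats (0.0742%, against 0.098% of all) and 16 were lower (0.198%, against 0.168%). At an unadjusted p under 0.05, 204 were called (2.52%, against 2.45% of all). At an adjusted p under 0.05, 0 were called, as among all regions (0%), and edgeR's likelihood ratio test and DESeq2 also gave 0. The shares in crowded bins were close to those of all regions in each case. The 22 calls lay in 20 bins, with at most 2 in any bin.

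The count depended on single libraries. Without sham rat 5, 53 of 8067 crowded-bin regions were called (0.657%, against 0.792% of all regions), with 28 higher (0.347%, against 0.397%) and 25 lower (0.31%, against 0.396%). Only 11 regions were called both ways. Leaving out sham rat 1 or sham rat 4 in its place gave 41 calls (0.506%, against 0.433% of all regions tested) and 67 calls (0.824%, against 0.727%). Leaving out TBI rats 2, 3 or 4 gave 8 (0.0988%, against 0.196%), 11 (0.136%, against 0.171%) and 13 (0.16%, against 0.178%). The sham and TBI ranges of CPM (counts per library, scaled by TMM) were separate in 35 regions (0.433%, against 0.502% of all), of which 21 were higher and 14 lower in TBI rats.

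Among these, the smallest p belonged to a region on chromosome 9 from 106455263 to 106456752. It held 4.25, 3.40, 5.54, 4.06 and 7.12 CPM in sham rats 1 to 5 and 1.97, 1.30, 1.56, 2.18 and 3.26 CPM in TBI rats 1 to 5. The lowest sham rat was just above the highest TBI rat. The log2 difference was -1.23 ± 0.24 (SE, adjusted p = 1.00 by edgeR's quasi-likelihood test) and -1.06 without sham rat 5, and the region was among the calls both ways. The rest of its bin did not move with it: 20 of the 41 tested regions there were higher and 21 lower in TBI rats, and the summed bin had a log2 difference of 0.11.

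The other named regions that were lower in TBI rats had smaller differences. A region on chromosome 1 from 13258678 to 13260290 ranged over 2.86 to 5.09 CPM after sham operation and 2.09 to 2.69 CPM after TBI, a log2 difference of -0.62, and -0.47 without sham rat 5, its highest rat, where it was no longer called. One on chromosome 10 from 67877572 to 67878392 had -1.10, with sham rat 5 at 2.64 CPM and the other sham rats at 0.926 to 1.37, and -0.76 without sham rat 5, where it was no longer called. One on chromosome 7 from 134258384 to 134258733 had -0.80, with 1.23 to 2.01 CPM after sham operation and 0.573 to 1.19 CPM after TBI. A long region on chromosome 2 from 28516594 to 28519489 had -0.47, with 6.14 to 7.02 CPM after sham operation and 3.11 to 5.90 CPM after TBI. In the bin of the region on chromosome 7, 26 of 37 tested regions were lower and the summed log2 difference was -0.09. In that of the region on chromosome 1, 25 of 37 were lower, but the summed log2 difference was 0.02. These 4 regions kept their calls in 2 to 7 of the 10 fits that left out a rat, whereas the region on chromosome 9 kept its call in 10 of 10.

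Among the regions higher in TBI rats with separate ranges, one on chromosome 15 from 46850029 to 46850777 had the smallest p. It held 1.55, 1.08, 1.74, 1.70 and 1.29 CPM in sham rats 1 to 5 and 1.81, 2.67, 3.08, 1.89 and 2.69 CPM in TBI rats 1 to 5, a log2 difference of 0.71 ± 0.23 (SE). The gap between the groups was small, with 2 TBI rats close to the highest sham rats. A region on chromosome 9 from 104747642 to 104748199 had 0.79, with 0.658 to 1.15 CPM after sham operation and 1.24 to 1.80 CPM after TBI, and it rose to 0.92 without sham rat 5. Regions starting at 147706997 on chromosome 5, at 73989525 on chromosome 10 and at 102653868 on chromosome 13 had log2 differences of 0.68, 0.54 and 0.55, and none of these 3 was called at an unadjusted p under 0.01. The regions on chromosomes 15 and 9 were called, and kept their calls in 6 and 3 of the 10 fits that left out a rat. The other 4 regions called higher had overlapping ranges. Each of these 10 regions had an adjusted p of 1.00 by edgeR's quasi-likelihood test.

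Tags were then summed over all regions of each bin, which gave each crowded bin enough tags to show a shift shared by its regions. At an unadjusted p under 0.01, 0 of 226 crowded bins were called by edgeR's quasi-likelihood test, against 0.302% of all 26127 bins tested. At an unadjusted p under 0.05, 7 were called (3.1%, against 2.77% of all). DESeq2 called 3 at p under 0.01, and the likelihood ratio test called 0, with no share over all bins to set beside these counts. The sham and TBI ranges of CPM were separate in 3 crowded bins (1.33%, against 0.643% of all bins). Without sham rat 5, 4 crowded bins were called (1.77%, against 0.861% of all bins), all higher in TBI rats, and 0 at an adjusted p under 0.05. Leaving out sham rat 1 or sham rat 3 in its place gave 1 call each, also with no share over all bins beside it.

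**Figure D4:**
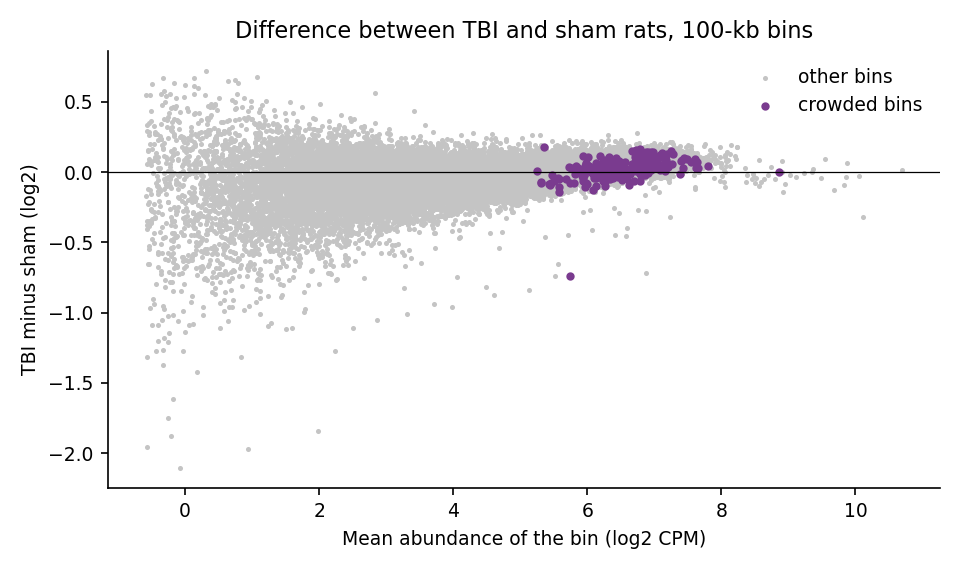
Log2 difference between TBI and sham rats (y axis) by mean log2 CPM (x axis) of the 26127 bins tested, with 1 point per bin and the crowded bins in colour. Crowded bins lie among the more abundant bins and close to 0, except the most crowded bin at -0.74, and their median was 0.03.

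The median log2 difference of crowded bins was 0.03, with 70.4% of them above 0, against -0.01 and 46.4% for all bins tested. Without sham rat 5 it was 0.01, with 61.9% above 0, against 0.00 and 48.8%. Their regions, taken singly, were balanced, with a median of -0.01 and 48.0% above 0, against -0.02 and 46.5% for all regions tested. The bin sums varied little between rats of a group: the median SD was 0.0916 on the log2 scale in crowded bins and 0.145 in other bins, which held fewer tags. Over the single regions tested the median SD was 0.303 in crowded bins and 0.308 elsewhere. Among all 10 rats, sham rat 5 was the lowest in 111 of the 226 crowded bins and the highest in 51.

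The bin with the smallest p lay on chromosome 10 from 101400000 to 101500000 and was lower in TBI rats. It held 69.1, 71.4, 68.1, 72.7 and 73.6 CPM in sham rats 1 to 5 and 66.1, 65.8, 63.2, 67.6 and 63.1 CPM in TBI rats 1 to 5. The groups did not overlap, and 25 of its 32 tested regions were lower. The log2 difference was -0.12 ± 0.042 (SE, adjusted p = 0.996 by edgeR's quasi-likelihood test), and -0.11 without sham rat 5. A bin on chromosome 1 from 3000000 to 3100000 also leaned lower, with 25 of 33 tested regions lower and a log2 difference of -0.10. The bins starting at 134200000 on chromosome 7 and at 68100000 on chromosome 8 had -0.09 and -0.14. The latter moved to -0.04 without sham rat 5, which held 63.6 CPM there against 45.8 to 47.9 CPM in the other sham rats.

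Among the bins higher in TBI rats, one on chromosome 6 from 27100000 to 27200000 had the smallest p. It held 105, 97.5, 114, 106 and 97.7 CPM in sham rats 1 to 5 and 114, 115, 113, 118 and 121 CPM in TBI rats 1 to 5, and 27 of its 36 tested regions were higher. The groups overlapped only in sham rat 3 and TBI rat 3, and the log2 difference was 0.16 ± 0.058 (SE). A bin on chromosome 5 from 49100000 to 49200000 did not overlap between the groups, with 104 to 113 CPM after sham operation and 114 to 121 CPM after TBI, a log2 difference of 0.12 and 28 of 41 tested regions higher. The bins starting at 48500000 and 51000000 on chromosome 8 and at 63400000 on chromosome 5 had log2 differences of 0.17, 0.11 and 0.16. The last was 0.10 without sham rat 5, which held 82.6 CPM there against 98.2 to 109 CPM in the other sham rats. The bin on chromosome 8 from 48500000 had the largest difference without sham rat 5, 0.24, and was called there, with 34.4 to 40.8 CPM in the other sham rats and 38.3 to 45.0 CPM in TBI rats. Of the 4 bins called without sham rat 5, it was one, as were the bin on chromosome 8 from 51000000, a bin with 65 regions described below and a bin on chromosome 10 from 54900000. The last had a log2 difference of 0.15 without sham rat 5 and 0.05 with it, and sham rat 5 was its highest rat at 70.3 CPM. The third bin with separate ranges lay on chromosome 10 from 63200000, with 71.3 to 73.6 CPM after sham operation and 73.6 to 76.6 CPM after TBI, a log2 difference of 0.05.

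The most crowded bin of all lay on chromosome 7 from 105600000 to 105700000 and was unlike the others. It held 73 regions, 8 more than the next, and these covered 66.6% of it, but only 22 had enough tags to be tested. It held 38.1, 32.7, 49.8, 45.4 and 167 CPM in sham rats 1 to 5 and 25.2, 34.7, 39.2, 39.4 and 61.5 CPM in TBI rats 1 to 5. Sham rat 5 was far above every other rat, and TBI rat 5 was the next highest. All 22 tested regions were lower in TBI rats, the only crowded bin where every tested region went one way. These regions passed a filter on tags summed over all rats, sham rat 5 included. Their directions are therefore not separate evidence, and a tally without that rat is not given. The summed log2 difference was -0.74 ± 0.39 (SE, adjusted p = 0.996 by edgeR's quasi-likelihood test). Without sham rat 5 it was -0.05. Sham rat 5 held over 50% of all tags in 41 of the 73 regions. In the recount that left such regions out, the bin fell below the limit of 54 regions. Its place among the crowded bins thus depended on that library.

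Sham rat 5 was also high in the bins around the most crowded one. In tags per 1000000 library tags, without TMM scaling, this library held 4.60 times the median of the other 9 rats in the bin, 5.70 times in the next bin (49 regions) and 2.28 times in the bin before it (25 regions). Farther out it was 1.72 times the median at 200 kb after the bin, 1.18 times at 300 kb, 8.29 times at 400 kb (102 tags in 6 regions) and 1.89 times at 500 kb. On the other side it was 1.58 to 2.29 times the median from 200 to 500 kb before the bin. Such ratios farther out were not particular to this bin. From 200 to 400 kb before the chromosome 18 bin described below, sham rat 5 held 2.08 to 3.73 times the median (40 to 109 tags). At 100 and 500 kb before that bin the ratios were 0.69 and 1.10, and after it 0.43 to 0.73. The most crowded bin also had the largest spread between rats of a group among crowded bins, with an SD of 0.732 on the log2 scale, and 0.386 without sham rat 5.

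The second largest spread, 0.431, was on chromosome 18 from 38700000 to 38800000, which had the most tags of the crowded bins (81231 over all rats). Here sham rat 5 was the lowest rat. On the same scale it held 247, against 547, 523, 513 and 491 in sham rats 1 to 4 and 584, 530, 442, 416 and 341 in TBI rats 1 to 5. The bin held 57 regions, 50 of them tested, whereas the bin before it held 1 region and the bin after it 14. Of the 5 crowded-bin regions with the most tags per kb, 4 lay in this bin. The strongest, from 38735179 to 38735676, had 10318 tags per kb over all rats and averaged 33.4 ± 5.5 CPM (SD) over the 5 sham and 31.0 ± 3.6 CPM over the 5 TBI animals, which overlapped (log2 difference -0.11 ± 0.15, SE). It was -0.21 without sham rat 5, the lowest at 23.7 CPM, and the log2 difference of the whole bin moved from 0.00 to -0.17. The other 3 began at 38744181, 38739540 and 38768078, with 7194, 3828 and 3309 tags per kb. The fifth lay on chromosome 19 from 52941136 to 52943394, with 3894 tags per kb.

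**Figure D5:**
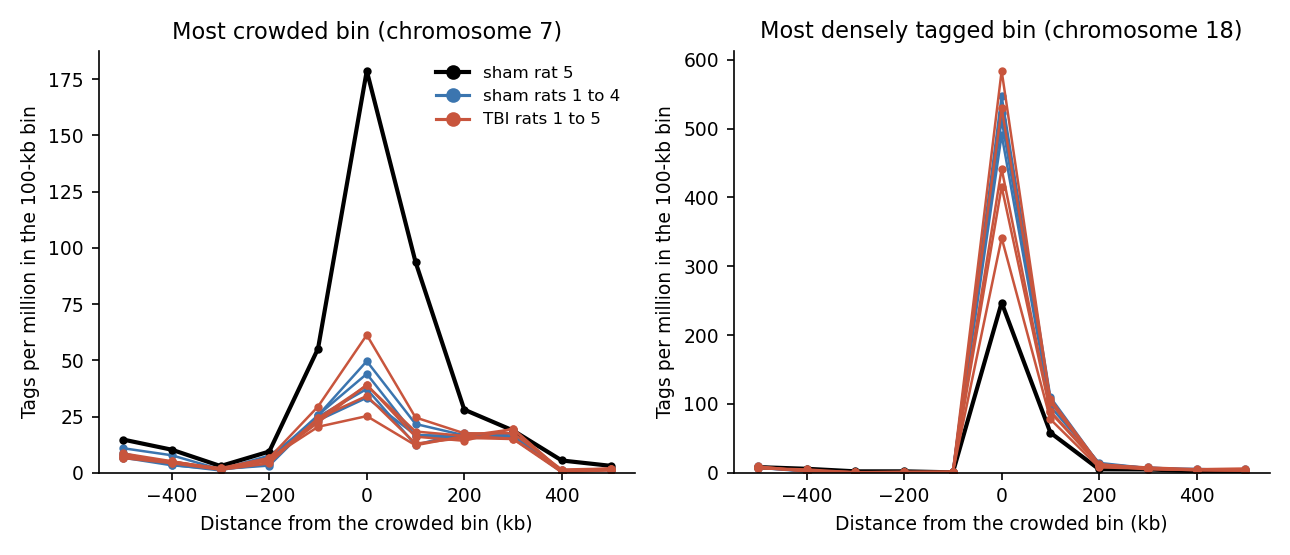
Tags per 1000000 library tags in 100-kb bins (y axis) by distance in kb (x axis) from the most crowded bin, on chromosome 7 (left), and from the crowded bin with the most tags, on chromosome 18 (right), with 1 line per rat. Sham rat 5 (black) is the highest rat in the first, at 179, and the lowest in the second, at 247, and both profiles peak in the bin itself.

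In the other bins with the most regions the groups differed less. The bins starting at 147700000 on chromosome 5 and at 14500000 on chromosome 15 held 65 regions each. The former averaged 165 ± 18.9 CPM (SD) over the 5 sham and 174 ± 4.6 CPM over the 5 TBI animals, with 29 of 53 tested regions higher in TBI rats. Its log2 difference was 0.08, and 0.01 without sham rat 5, which held 135 CPM against 162 to 186 CPM in the other sham rats. The latter held 77.4 ± 5.2 CPM and 83.2 ± 5.0 CPM, with 26 of 39 tested regions higher, and its log2 difference was 0.10, or 0.15 without sham rat 5, where the bin was called. A bin with 64 regions lay on chromosome 5 from 158200000 to 158300000, and its log2 difference was 0.06, and 0.01 without sham rat 5. Bins with 63 regions lay on chromosome 1 from 53200000, chromosome 10 from 67800000 and from 101400000, chromosome 16 from 75900000 and chromosome 17 from 25800000, and a bin with 62 on chromosome 1 from 8500000. Apart from the one on chromosome 10 from 101400000, described above, their log2 differences lay between -0.01 and 0.08, and none was called. They lay between -0.03 and 0.05 without sham rat 5. In the 3 touching bins of chromosome 2 the log2 differences were 0.04, 0.03 and 0.03, and sham rat 5 was the lowest rat in each, at 70.4, 119 and 135 CPM. Without it they were 0.01, -0.08 and -0.08, so that the direction turned in the last 2.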

How the data were processed

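Tags per region in 10 rats were taken from the deposited matrix of raw counts. Per the study's methods and the submitters' processing notes, the authors aligned 36-bp single reads to RN4 (rn4) with BWA, called regions with MACS between pairs of samples, merged them with BEDTools, removed duplicate reads and deposited tag counts without scaling. Since a region entered where some pair of libraries differed, an unusual library can add regions. Counts also depend on CpG density, capture and each rat's sequence.

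Samples were grouped by treatment label, and 0 further sample columns were present. The members, lists and tests were chosen with earlier results of these data known. Regions at or above the 50th percentile of the tag sum (117 tags), and sums over bins with at least 100 tags, entered quasi-likelihood tests in edgeR 4.0.16 (R 4.3.3; TMM, trended dispersion, Benjamini-Hochberg adjustment over all features tested), with DESeq2 1.42.0 as an alternative. Standard errors came from the F statistic. Spread used log2(CPM + 0.5). Library values were compared by exact permutation tests, with numpy 2.4.6 and pandas 2.3.3 under Python 3.11.15. Scripts were tested on simulated data. Bins and regions named were the 10 with the most regions, the longest run, the 5 of smallest p per direction (regions without overlap between groups), and the 5 regions with the most tags per kb. The bins without overlap, those called without sham rat 5 and the 2 bins with the largest spread were singled out after their values were seen. Alternatives were other normalizations, filters, thresholds, tests and bins, and leaving out each rat. Recounts of bins by tested regions or without regions led by sham rat 5, keeping ties at the limit, and 3 added library measures were chosen after seeing the data.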

Additional observations from a re-analysis of the deposited data

Results flagged for a closer look

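Values of library measures, named regions and named bins were compared within 48 sets of 5 rats. In 4 sets the highest or lowest rat was far from the others by Dixon's test, where chance flags about 1 in 20 sets, or 2.4 here. Sham rat 5 was the high value in 3 of them: the region on chromosome 10 from 67877572 (2.64 CPM), the most crowded bin, on chromosome 7 from 105600000 (167 CPM), and the bin on chromosome 8 from 68100000 (63.6 CPM). The other was TBI rat 4, the low value at 38.3 CPM in the bin on chromosome 8 from 48500000.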

How the results depend on the processing

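No paired analysis was possible because the labels number each rat once, so sham and TBI share no number. Against 22 crowded-bin regions called (6 higher and 16 lower in TBI rats), a filter of at least 1 tag gave 81. This was 0.612%, against 0.535% of 715411 regions, with 10 higher (0.0755%, against 0.092%) and 71 lower (0.536%, against 0.443%). All regions with a tag thus leaned lower too. At p under 0.05, 204 were called (2.52%, against 2.45% of all), 79 higher and 125 lower, with no share of all by direction. At an adjusted p under 0.05, 0 were called (0 and 0), as among all regions. Lower calls were 9 with at least 10 tags in every sample (0.155%, against 0.176% of all) and 25 with the likelihood ratio test (0.309%, against 0.28%). There were 14 calls with 200-kb bins (0.192%) and 13 with bins shifted by 50 kb (0.165%), against 0.266% of all. With 200-kb bins 3 were higher (0.0411%, against 0.098% of all), and with shifted bins 8 were lower (0.101%, against 0.168%). Leaving out each rat in turn gave 8 to 67 calls. The fewest were without TBI rat 2 (0.0988%, against 0.196% of all regions) and the most without sham rat 4 (0.824%, against 0.727%). Calls higher in TBI rats ran from 0 without TBI rat 3 (0%, against 0.0721%) to 28 without sham rat 5 (0.347%, against 0.397%). Lower calls ran from 5 without TBI rat 2 (0.0617%, against 0.113%) to 53 without sham rat 4 (0.652%, against 0.558%). Against 0 crowded bins called, there were 2 with total tags alone, 7 at p under 0.05, 1 with shifted bins, 3 with DESeq2 and 0 to 4 without each rat. Shares over all bins are given only at p under 0.05 (3.1%, against 2.77% of all) and without sham rat 5 (1.77%, against 0.861%). The other counts have no such share beside them and show neither an excess nor a lack of calls. The difference in tag share (0.0309 percentage points) was 0.0649 with only regions at or above the 50th percentile (exact p = 0.437), 0.0149 with 50-kb bins (exact p = 0.183) and 0.0179 to 0.0375 without each rat. It was 0.0464 with 200-kb bins, 0.0383 with shifted bins and 0.0516 with a limit of 2% of bins, which kept 1.44% (exact p = 0.00794 each). The log2 density difference turned from 0.14 to -0.015 with only regions at or above the 50th percentile, and was 0.03 with 50-kb bins and 0.34 as a difference of medians. The causes were not tested. Under other normalizations or without a rat, 33 of 84 values of the 7 named regions called lost the call, 4 of 36 values of the 3 others gained one, and 0 reversed. Keeping bins tied at the limit gave 348 bins with 20079 regions, the same set as with the limit of 2%. Chosen bins depended on the bin frame, and CpG content and genes were not analysed here.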
